A study of Camellia sinensis with 9 samples.

Results

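This account describes 165 reference transcripts of the tea plant, Camellia sinensis, that were abundant in flower and nearly absent from root and leaf. They were chosen from the measured values. A transcript was a member when it matched a reference transcript, was the sole reference transcript of its locus, reached an FPKM of at least 50 in each of the 3 flower libraries, and had no root or leaf value above 5% of its flower mean. FPKM counts sequenced fragments scaled to transcript length and library size, so levels are per length and can be compared between transcripts. The table held 109879 assembled transcripts, of which 36951 matched a reference transcript and 26178 were the sole such transcript of their locus. The libraries came from flower (flower 1, 2 and 45), root (root 13, 23 and 33) and leaf (leaf 1, leaf 41 and a leaf library whose column carries the number 23, which no leaf title has, called the unnumbered leaf library). The labels give no treatment in any group, and they state neither cultivar, plant age, flower stage nor whether the libraries of an organ came from separate plants.

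A flower is a composite organ. Sepals and petals enclose stamens, whose anthers form pollen, and a pistil, which holds the ovules, and floral organ identity is set by combinations of transcription factors, many of them of the MADS-box family. Plant anthers and pollen are known for large sets of transcripts that other organs hardly express, among them genes for the pollen wall, lipid transport and cell wall remodelling. The table pairs none of its identifiers with a gene name, and 0 of them matched the RefSeq gene table of the species, so no member can be assigned to such a group and the organ labels could not be checked against marker genes. In bulk samples, fewer cells of a type and less RNA per cell cannot be told apart.

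Some libraries stood apart from others of their organ. Over the 55806 transcripts that reached 1 FPKM in 3 or more libraries, Pearson's r of log2(FPKM + 1) was 0.83 between flower 2 and each other flower library and 0.93 between those. It was 0.76 and 0.77 between leaf 41 and the other leaf libraries, which reached 0.95 with each other, and 0.87 and 0.88 between root 13 and the other root libraries, which reached 0.94. Without flower 2 the membership rule gave 193 transcripts, 160 of them among the 165, and without leaf 41 it gave 169, with all 165 among them. At a length of 1000 nt, 1 FPKM stood for 14.1 to 17.9 fragments in flower libraries, 14.0 to 17.8 in root libraries and 22.99 to 25.9 in leaf libraries, so many root and leaf values below rest on a few fragments.

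The rule kept more transcripts in flower than it did when applied to the other organs. Of the 1003 sole reference transcripts with an FPKM of at least 50 in every flower library, 165 (16.5%) met the rule. The same rule applied to root kept 64 of 963 (6.65%), and applied to leaf it kept 33 of 519 (6.36%). With every library scaled to the same sum of FPKM, the counts were 141 of 902 in flower, 58 of 938 in root and 51 of 682 in leaf. These are descriptions, since the rule used these values.

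Together the members made up 11.7% of summed FPKM in flower 1, 11.2% in flower 2 and 8.97% in flower 45. They made up 0.0439% in root 13, 0.0322% in root 23 and 0.0622% in root 33. In leaf they made up 0.119% in leaf 1, 0.0862% in the unnumbered library and 0.0620% in leaf 41. The median member stood at 345 FPKM in flower 1, 287 in flower 2 and 163 in flower 45. In root the median was 0.353 FPKM in root 13, 0.285 in root 23 and 0.547 in root 33, and in leaf it was 2.10 in leaf 1, 1.82 in the unnumbered library and 1.23 in leaf 41. No flower value of a member was below the minimum that the rule set, so the gap between flower and the other organs in the plot of members by library is a property of the choice.

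**Figure D1:**
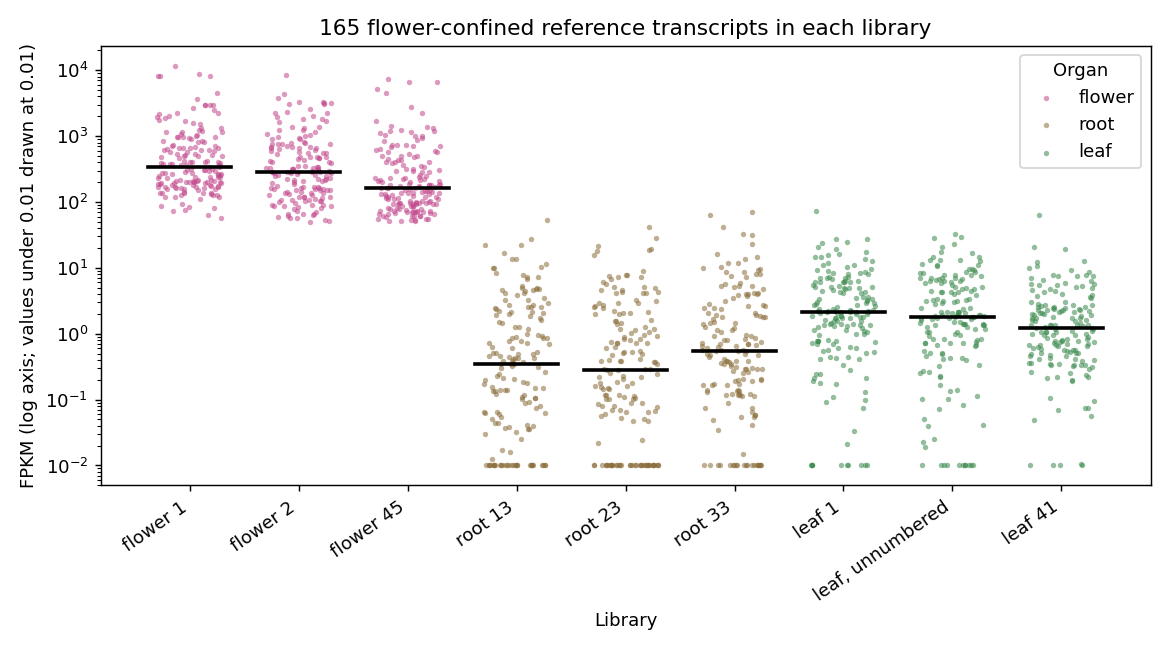
Each point is the FPKM (log axis) of a flower-confined reference transcript in the library named on the horizontal axis, with values under 0.01 drawn at 0.01, and black bars mark medians. The medians run from 163 to 345 FPKM in flower libraries, from 0.285 to 0.547 in root libraries and from 1.23 to 2.10 in leaf libraries.

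Levels in flower spread over more than 100-fold. The flower mean ran from 61.1 to 7921 FPKM with a median of 289.8, and 9 members stood below 100 FPKM, 107 from 100 to 500, 22 from 500 to 1000 and 27 above. The flower mean was 20 to 50 times the largest root or leaf value in 50 members, 50 to 100 times in 55, 100 to 500 times in 47 and more than 500 times in 12. In 1 further member, which spans 186 nt, all 6 root and leaf values are listed at 0. At the limit of the rule, the members just inside had flower means 20.03, 20.3 and 20.5 times the largest root or leaf value, and the transcripts just outside 19.8, 19.7 and 19.7 times. By the flower minimum, the lowest flower values were 50.5 and 51.2 FPKM just inside and 49.8 and 49.7 just outside. Another 48 transcripts at the flower minimum stood between 10 and 20 times.

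The highest members were CSA019025.1 and CSA034913.1, both of which span under 400 nt, where FPKM rests on a short effective length. CSA019025.1 (locus MSTRG.25156, plus strand, positions 141085 to 141366 on a scaffold the table does not name) had 8759.7 FPKM in flower 1, 8389.95 in flower 2 and 6613 in flower 45. It had 1.97, 3.16 and 0.538 FPKM in root 13, 23 and 33, and 1.43, 1.64 and 1.61 in leaf 1, the unnumbered leaf library and leaf 41. Its flower libraries lay close together, and its root and leaf values were all within a few FPKM of 0. CSA034913.1 (MSTRG.24823, plus strand, positions 141625 to 141858) had 11643 FPKM in flower 1, 4367 in flower 2 and 7298 in flower 45. It had 21.97, 21.6 and 63.5 FPKM in root 13, 23 and 33, and 8.45, 4.49 and 6.64 in leaf 1, the unnumbered leaf library and leaf 41. Here flower 1 was the highest flower library and root 33 stood above the other root libraries. In all, 15 members (9.09%) span under 400 nt, and 9.06% of all sole reference transcripts do.

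Span, transcript number and strand were not used by the rule. The median genomic span, introns included, was 2138 nt for members, 3051 nt for all 1003 sole reference transcripts at the flower minimum and 2253 nt for all 26178. Of the member loci, 128 (77.6%) held the reference transcript alone, against 69.4% over the 1003. The members lay on both strands, 86 on the plus and 79 on the minus strand. These are descriptions over transcripts, with no test.

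No 2 members lay in consecutively numbered loci, and 0 pairs lay within 5 locus numbers of each other. Among the 330 loci numbered directly before or after a member, 41 (12.4%) had a flower mean of at least 1 FPKM with no root or leaf value above 5% of it. Over the 54889 loci with such numbers the share was 4.84%. Consecutive numbers had increasing start positions in 70.4% of cases, so they follow a scaffold in most but not all places. A neighbouring number can therefore be on another scaffold or hold a further fragment of the same gene, which was not tested.

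The 37 member loci with more than 1 transcript held 55 companion transcripts, mostly splice variants that share a junction with the reference transcript (43). All companions lay on the strand of their member. The reference transcript held a median of 84.9% of the flower FPKM of its locus, from 21.2% to 99.95%. Of the 46 companions with a flower mean of at least 1 FPKM, 38 also had no root or leaf value above 5% of it and 8 had one. With all transcripts of a locus summed, 162 of the 165 loci kept the flower mean at 20 times the largest root or leaf value or more, and 3 did not.

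The companions with the highest flower means both exceeded their reference transcript. MSTRG.6113.2 (plus strand, positions 941923 to 945629) had 582, 564 and 481 FPKM in flower 1, 2 and 45, against 156, 161 and 121 FPKM for the reference transcript CSA023073.1 of the same locus. Its other values were 2.12, 2.21 and 5.34 FPKM in root 13, 23 and 33 and 14.7, 8.68 and 3.40 in leaf 1, the unnumbered library and leaf 41. The variant was thus flower-confined by the same measure, with leaf 1 its highest value outside flower. MSTRG.36571.4 (plus strand, positions 36071 to 41596) had 316, 729 and 535 FPKM in flower 1, 2 and 45, where its reference transcript CSA017942.1 had 298, 650.5 and 319. In root 13, 23 and 33 the variant had 65.8, 12.0 and 32.0 FPKM and the reference transcript 17.0, 4.92 and 7.18. Root 13 and root 33 both took the variant past 5% of its flower mean, and this locus was among the 3 whose sum did not pass. How fragments were divided between overlapping transcripts of a locus is the authors' estimate.

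Members differed widely between the flower libraries. The coefficient of variation over the 3 flower libraries (SD divided by mean) had a median of 47.1% among members, with quartiles of 30.9% and 56.4%. Among the 838 other sole reference transcripts at the flower minimum it had a median of 25.1%, with quartiles of 15.2% and 36.9%. Flower 1 was the highest flower library for 98 members, flower 2 for 64 and flower 45 for 3. Flower 45 was the lowest for 108, flower 2 for 54 and flower 1 for 3. These counts were not adjusted for the FPKM sums over all transcripts, which were 1250930 in flower 1, 962182 in flower 2 and 913083 in flower 45.

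The extremes in flower 2 ran both ways. CSA021587.1 (MSTRG.35939, plus strand, positions 131719 to 132358) had 152, 802 and 65.2 FPKM in flower 1, 2 and 45, with 0 listed in all 3 root libraries, in leaf 1 and in the unnumbered leaf library, and 0.221 FPKM in leaf 41. CSA024261.1 (MSTRG.47488, plus strand, positions 11760 to 12851) had 72.7, 312 and 61.4 FPKM in flower 1, 2 and 45. In root 13, 23 and 33 it had 3.22, 1.41 and 5.36 FPKM, and in leaf 1, the unnumbered library and leaf 41 it had 2.80, 1.40 and 3.70. For both, flower 2 was several times the other flower libraries. The reverse held for CSA001825.1 (MSTRG.14056, plus strand, positions 284185 to 302145), with 506, 51.2 and 389.8 FPKM in flower 1, 2 and 45, and for CSA022788.1 (MSTRG.10514, plus strand, positions 348025 to 349936), with 2922, 299.66 and 2228 FPKM. In root 13, 23 and 33, CSA001825.1 had 0.421, 0.248 and 0.139 FPKM, and in leaf 1, the unnumbered library and leaf 41 it had 0.0739, 0.04995 and 0.0494. In the same order CSA022788.1 had 0.855, 0.0681 and 0.172 FPKM in root and 0.330, 0.0414 and 0.532 in leaf.

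A block of members shared a flower profile, and most but not all of them were also alike in leaf. It was noticed in the values and drawn afterwards from flower alone: 54 members with flower 2 above flower 1 and flower 45 below 0.6 of the flower mean. The cut used FPKM as deposited, not adjusted for the FPKM sums of the libraries. No other scaling or cut of the block was tried. Members near its limits could fall on the other side, so the contrasts with the other members hold for this cut alone. Flower 45 was the lowest flower library in all 54, an order that the cut itself largely sets. The cut also shapes the flower ratios given below. The profile was present in 32.7% of members and in 2.51% of the 838 other transcripts at the flower minimum (21). In the 54, the ratio of flower 2 to flower 1 had a median of 1.41 (quartiles 1.17 and 1.54), and that of flower 45 to flower 1 a median of 0.393 (quartiles 0.344 and 0.442). Most of their leaf means lay in a narrow band below their flower means, at a median of 0.759% with quartiles of 0.627% and 0.854%. The full leaf share ran from 0.00569% to 4.19% in the 54 and from 0% to 3.60% in the other 111. Among the other 111 members the leaf share had a median of 0.668% and wider quartiles of 0.255% and 1.10%. A leaf share between 0.4% and 1.2% of the flower mean was held by 42 of the 54 (77.8%) and by 44 of the 111 (39.6%). This range lies around the median of the 54 and was set with the leaf values known. The shares in it are therefore a description and were not tested.

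**Figure D2:**
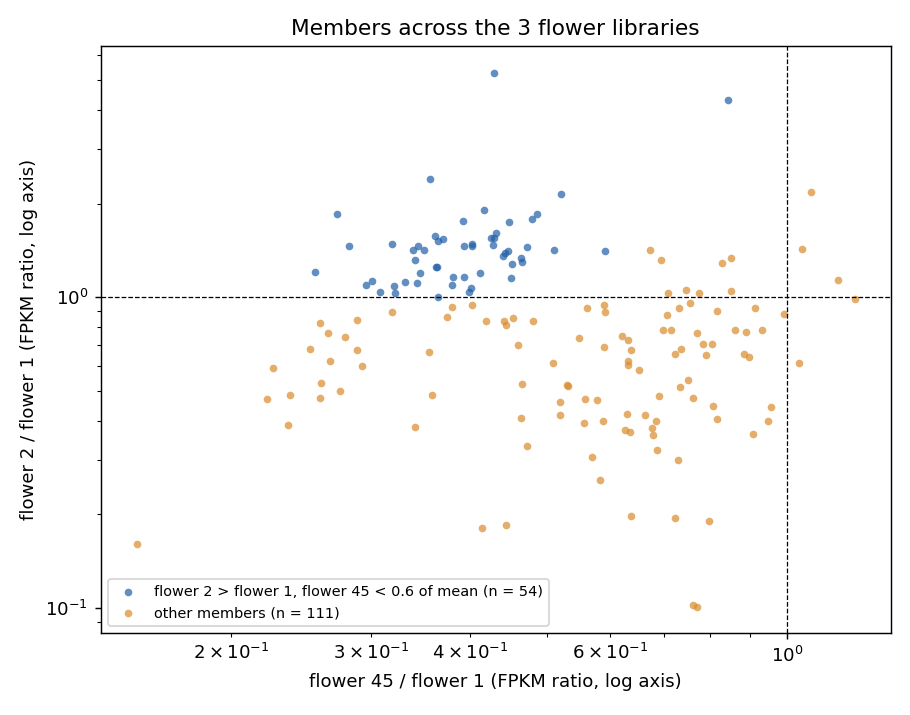
Each point is a member, with the FPKM ratio of flower 45 to flower 1 on the horizontal axis and of flower 2 to flower 1 on the vertical axis (both log axes), and dashed lines mark equal values. The 54 blue members were drawn by this profile and gather near ratios of 0.393 and 1.41, while the 111 orange members spread over both axes.

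Within leaf most of the 54 also had a common order, and within root fewer of them did. The ratio of leaf 41 to leaf 1 had a median of 0.331 (quartiles 0.248 and 0.393) in the 54, and of 0.718 (quartiles 0.356 and 1.85) in the other 111. The unnumbered leaf library stood near leaf 1, with a median ratio of 1.03. Leaf 41 was the lowest leaf library in 47 of the 54 and in 50 of the 111. The root share of the flower mean had a median of 0.0373% in the 54 and of 0.305% in the 111. Root 33 was the highest root library in 37 of the 54 and in 50 of the 111. This root order rests on few fragments. The median root value of the 54 was 0.0978, 0.0958 and 0.337 FPKM in root 13, 23 and 33. At 1000 nt, 1 fragment was worth 0.0561, 0.0715 and 0.0604 FPKM in these libraries.

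Summed over the 54, the levels were 33533 FPKM in flower 1, 45371 in flower 2 and 13278 in flower 45. The sums were 40.6, 30.3 and 53.7 FPKM in root 13, 23 and 33, and 292, 312 and 109 FPKM in leaf 1, the unnumbered library and leaf 41. The leaf sums thus stood at 0.95%, 1.01% and 0.354% of the mean flower sum in those 3 libraries. Across the 54, log2 flower and leaf means had a Pearson's r of 0.64, and across the 110 other members with a leaf mean above 0 it was 0.25. These correlations are across transcripts of the same libraries and carry no test, and the choice of members limits how high a leaf value can be.

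The common leaf share did not extend to every abundant member. In 14 members the leaf mean was under 0.05% of the flower mean, 3 of them in the block of 54 and 11 outside it. CSA019025.1, the highest member, and CSA022788.1 were among the 11, with leaf shares of 0.0197% and 0.0166%. In the block, transcription in leaf and flower RNA that reached the leaf material or libraries cannot be told apart, so its leaf values may not be a level of leaf tissue. The same limit holds for leaf values outside the block.

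**Figure D3:**
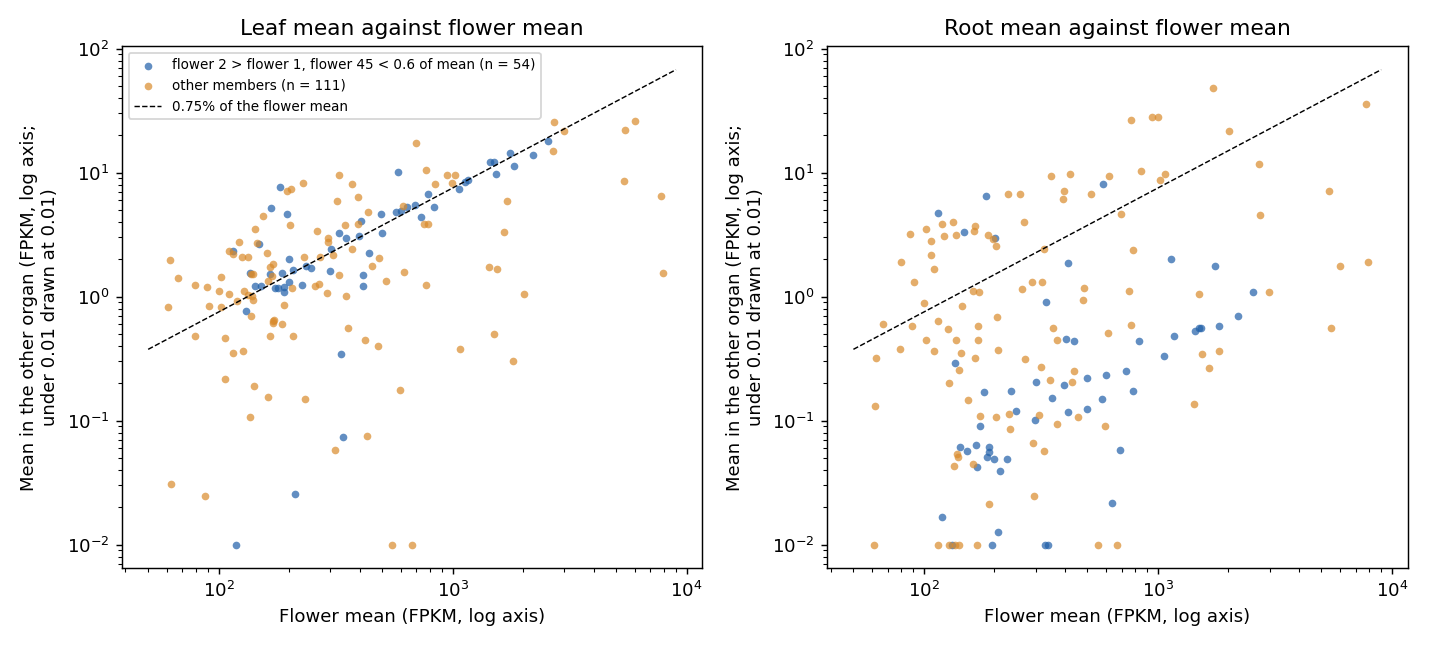
Each point is a member, with its flower mean on the horizontal axis and its leaf mean (left) or root mean (right) on the vertical axis, in FPKM on log axes with values under 0.01 drawn at 0.01. Most of the 54 members in blue lie along the dashed line at 0.75% of the flower mean in leaf and far below it in root, while the 111 in orange scatter.

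Root and leaf were compared next. The rule capped both organs alike and did not use the direction of their difference, which was tested. It did act on the same root and leaf values. A single root library kept out 5 (root 13), 0 (root 23) and 13 (root 33) further transcripts at the flower minimum. A single leaf library kept out 5 (leaf 1), 2 (unnumbered) and 4 (leaf 41). The choice may therefore shape the counts in each direction. The largest of the 6 root and leaf values was in a leaf library for 114 members. It was in a root library for the others except 1, whose 6 values were all 0. In the limma fit over all 55806 transcripts, 14 members (8.48%) were higher in root than in leaf and 38 (23.03%) lower, at an adjusted p under 0.05 and a difference of at least 1 on the log2(FPKM + 1) scale. Over all transcripts tested, 17.5% were called higher in root and 13.4% lower. These shares are not like for like, since 76 members entered the fit only with the help of their flower values. The other 89 reached 1 FPKM in 3 or more of the 6 root and leaf libraries. Of these 89, 14 were higher in root (15.7%) and 34 lower (38.2%), beside 21.1% and 15.3% of the 45712 transcripts that met the same condition. These shares are not like for like either. The 45712 are assembled transcripts of every class, not sole reference transcripts alone, and their root and leaf values were not capped. Whether the members' shares differ from the others was not tested. The median difference, root minus leaf, was -0.76 among members and -0.0070 over all transcripts tested. Among the 89, root and leaf libraries did not overlap in 18 members with root higher (20.2%) and in 40 with root lower (44.9%), beside 29.3% and 23.8% of the 45712.

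The count of members lower in root moved with single libraries. It was 22 without root 23, 23 without leaf 1, 24 without the unnumbered leaf library and 57 without leaf 41, while the count of members higher in root ran from 10 to 14 with each of the 9 libraries left out in turn. With equal sums of FPKM, which moved the median of all transcripts to -0.28, 12 members were higher in root and 55 lower. In 18 members all 6 values were under 1 FPKM, where the pseudocount of 1 leaves little room for a difference.

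Members higher in root had root means of 2.83 to 47.7 FPKM (median 9.51) and leaf means of 0.0247 to 10.6 FPKM (median 0.970). CSA023063.1 (MSTRG.6100, minus strand, positions 334517 to 334894) had 13.5, 28.6 and 22.6 FPKM in root 13, 23 and 33, against 0, 0.398 and 2.73 in leaf 1, the unnumbered library and leaf 41. The root and leaf values did not overlap, and both were far below the 2951, 1378 and 1702 FPKM of flower 1, 2 and 45. Its difference was 3.64 ± 0.52 (SE) on the log2(FPKM + 1) scale, with a limma adjusted p of 0.000752. CSA025477.1 (MSTRG.27876, plus strand, positions 345681 to 347012) had 8.30, 6.17 and 14.8 FPKM in root 13, 23 and 33, against 0.245, 0.429 and 0.458 in the leaf libraries. All leaf values stayed below 0.5 FPKM, with 1029, 1328 and 853 FPKM in flower 1, 2 and 45. Its difference was 2.89 ± 0.33 (SE), with a limma adjusted p of 0.000228.

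Members lower in root had root means of up to 2.92 FPKM (median 0.241) and leaf means of 1.73 to 26.0 FPKM (median 5.21). CSA019937.1 (MSTRG.7797, minus strand, positions 146246 to 147476) had 2.89, 0.955 and 1.43 FPKM in root 13, 23 and 33, against 24.6, 32.6 and 20.6 in leaf 1, the unnumbered library and leaf 41. Every leaf library was several times every root library, while flower 1, 2 and 45 stood at 8094, 3295 and 6607 FPKM. Its difference was -3.33 ± 0.40 (SE), with a limma adjusted p of 0.000312. CSA005423.1 (MSTRG.1144, plus strand, positions 163557 to 164924) had 0.464, 0.711 and 2.10 FPKM in root 13, 23 and 33, against 27.6, 29.3 and 7.88 in leaf 1, the unnumbered library and leaf 41. Leaf 41 was the lowest leaf library and root 33 the highest root library, and flower 1, 2 and 45 stood at 4559.8, 3075 and 1315 FPKM. Its difference was -3.32 ± 0.60 (SE), with a limma adjusted p of 0.00261.

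**Figure D4:**
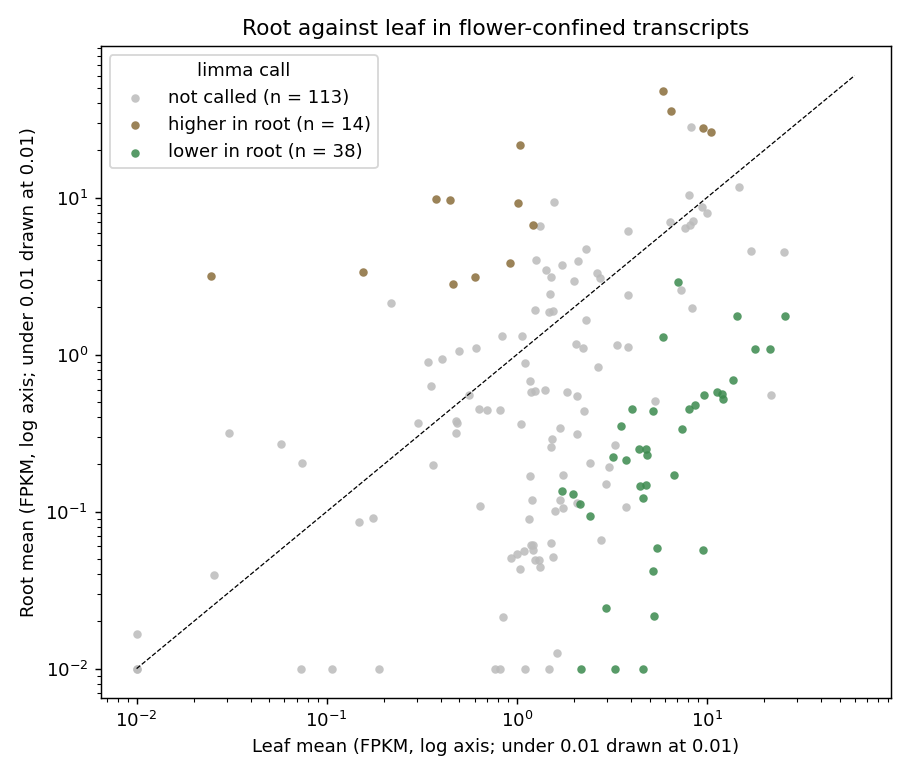
Each point is a member, with its leaf mean on the horizontal axis and its root mean on the vertical axis (FPKM, log axes, values under 0.01 drawn at 0.01), and the dashed line marks equal means. The 14 members called higher in root reach root means of 47.7 FPKM, and the 38 called lower in root lie below the line with leaf means of up to 26.0 FPKM.

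The block of 54 and the other members were split differently by these calls. In the block, 0 members were higher and 22 lower in root than in leaf (limma). At an unadjusted p under 0.05 in the same limma fit, 0 of the 54 had root above leaf and 36 had root below it, beside 23.3% and 20.3% of all transcripts tested. The direction was not the same in all 54. The leaf mean was above the root mean in 47 of the 54 and in 70 of the 111. Every leaf value was above every root value in 41 of the 54 and 36 of the 111. Every root value was above every leaf value in 2 of the 54 and 20 of the 111. Among the other 111, 14 were called higher and 16 lower. Over all transcripts tested, 17.5% and 13.4% had such calls. Neither set of shares over all transcripts is like for like, since members could enter the fit through flower values alone. The block was drawn after the values were seen, so this split is a description and was not tested. The limit on what leaf values mean in the block bears on these 22 of the 38 calls. It may bear on the other 16 too, since 44 of the 111 had leaf shares in the same range of 0.4% to 1.2%. CSA005423.1 and CSA019937.1, both outside the block, had leaf shares of 0.724% and 0.433%.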

How the data were processed

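Total RNA of flower, root and leaf (3 libraries each) was extracted with TRIzol and sequenced after removal of ribosomal RNA, per the labels' protocols. The deposited values are the authors' FPKM, 1 row per assembled transcript, made with HISAT2, StringTie and Cuffnorm, per the submitters' processing notes. For versions, settings, strand use and build: not given in the sources used here. Columns were matched to samples by title. The unnumbered leaf column was used as a leaf replicate. Nothing in the labels says that replicates are separate plants, and p-values therefore reflect library spread alone, which may be technical.

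Members were drawn by the rule given above. Members and lists were chosen with earlier results of these data known. Root and leaf were compared with limma 3.58.1 (R 4.3.3) on log2(FPKM + 1), over the 55806 transcripts reaching 1 FPKM in 3 or more libraries, with a variance trend and 1 mean per organ over all 9 libraries (6 residual degrees of freedom). Adjusted p-values are Benjamini-Hochberg over all transcripts tested, and the pseudocount understates changes of low values. The script was tested on simulated data. Identifiers carry no names, so at most 2 were named per direction: by flower mean, by root minus leaf difference, by companion level and by flower 2. Depth was read from the steps of low FPKM values in unstranded transcripts of loci with 1 transcript. At 1000 nt, 3 fragments, the limit for a value of 0, came to 0.167 to 0.213 FPKM in flower, 0.168 to 0.215 in root and 0.116 to 0.130 in leaf libraries (counting error only).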

Additional observations from a re-analysis of the deposited data

How the results depend on the processing

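The 4 members named for their difference between root and leaf kept their direction and their call in all 76 values computed. They were picked as the most extreme differences among called members whose root and leaf values did not overlap. Their stability therefore does not speak for the other calls. The number of members was 261 with a flower minimum of 20 FPKM and 102 with 100 FPKM, and within 1.5 times 165 in the other 14 alternatives, which ran from 115 (flower mean at least 50 times the largest root or leaf value) to 226 (without flower 45). With a library left out in turn the number ran from 157 to 226. The count of members higher in root was 7 with a pseudocount of 5 and ran from 10 to 14 with a library left out. The count of members lower in root was 72 with a pseudocount of 0.1, 11 with a pseudocount of 5 and 76 with array weights, and ran from 22 to 57 with a library left out. Raising the pseudocount compresses low values by construction, and the cause of the other changes was not tested. With root and leaf libraries alone in the fit, 12 members were higher and 53 lower. No paired analysis was possible because root and leaf titles share no replicate number, and the columns used share only the number 23. Depth limits the low values: at 1000 nt, 1 fragment was worth 0.0715 FPKM in root 23 and 0.0386 FPKM in leaf 1.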
